A study of Mus musculus with 123 samples.

Results

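The 5 genes described here encode parts of the machinery that moves water and ions as the mouse blastocyst fills its cavity, the blastocoel: the water channels Aqp3, Aqp8 and Aqp9, and Atp1b1 and Atp1b3, which encode the β1 and β3 subunits of the Na,K-ATPase. They were chosen by name from the 29022 genes of the deposited table of counts, and all 5 were found. Transcripts had been counted in 123 libraries, each made from 1 whole embryo or 1 inner cell mass (ICM). Reads came mostly from the 3′ ends of transcripts, and a unique molecular identifier (UMI) on each molecule let copies made by PCR count once. Levels are given in CPM, in which the UMIs of every library are scaled to the same total.

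The blastocoel forms between the outer trophectoderm and the ICM. The Na,K-ATPase has an α subunit that transports and a β subunit that the pump needs to fold and reach the membrane. It moves sodium across the trophectoderm, and water follows the gradient, in part through aquaporins. Aqp8 is a water channel, while Aqp3 and Aqp9 are aquaglyceroporins, which also pass glycerol and other small solutes. An ICM freed of trophectoderm is thus not the tissue in which this machinery is best known.

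The study followed embryos that lack the transcription factor Oct4 (encoded by Pou5f1) or Sox2 while their ICM forms. In the Oct4 line, fathers carried an mKO2 knockout allele and in the Sox2 line an EGFP knockout allele, and they were mated with flox/flox mothers whose own gene was deleted in the oocyte by Zp3-Cre. KO embryos had neither the mother's supply nor a working copy of their own. Ctrl embryos were without the mother's supply but had 1 intact paternal allele, so each of them was itself a maternal knockout. In MWT embryos the mother still had the gene. Ctrl and KO morulae were taken whole at E2.75, early ICMs at E3.75 and late ICMs at E4.5. Their ICMs of both stages had been cultured from E2.5 with 1 µM of the MEK inhibitor PD0325901, which holds back primitive endoderm, and their trophectoderm had been killed by immunosurgery. Stage, culture and isolation cannot therefore be told apart. All embryos are labelled B6C3F1. Each line had 8 Ctrl and 8 KO embryos at each stage. The Oct4 line also had 7 MWT morulae, 5 MWT early ICMs and 8 MWT late ICMs, and the Sox2 line 7 MWT early ICMs. The MWT morulae and the Sox2 MWT early ICMs carry the same stage labels, and the latter the same treatment. For the Oct4 MWT ICMs the stage is that of the sample title, because another label gives an earlier one, so their embryonic day is not settled. The inhibitor is in the sample labels of the Oct4 MWT late ICMs but not in those of the 5 Oct4 MWT early ICMs.

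The libraries held 525755 to 1344035 UMIs, so 1 CPM is about 1 UMI in an embryo. To check genotypes, Pou5f1 was read first. It lay at 0 to 3.24 CPM in Oct4-KO morulae against 13.4 to 26.6 CPM in Ctrl, at 0 to 4.73 against 58.3 to 93.6 CPM in early ICMs and at 0 to 1.26 against 23.4 to 61.6 CPM in late ICMs. Sox2 lay at 0 to 3.32 CPM in Sox2-KO morulae against 2.91 to 34.2 CPM in Ctrl, where the ranges met, at 7.74 to 36.4 against 72.6 to 194 CPM in early ICMs and at 8.09 to 29.3 against 94.2 to 299 CPM in late ICMs. Markers of trophectoderm (14 genes, among them Cdx2, Gata3, Eomes, Krt8 and Krt18) were present in all groups. Their summed level ran from 857 to 1728 CPM in Oct4-KO early ICMs against 322 to 1731 CPM in Ctrl, and from 2374 to 5064 against 414 to 1716 CPM in late ICMs. In the Sox2 line it ran from 1085 to 2518 CPM in KO early ICMs against 154 to 664 CPM in Ctrl, and from 910.0 to 3215 against 197 to 3605 CPM in late ICMs. In an ICM measured as a whole, fewer cells of a type and less RNA per cell cannot be told apart.

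On mm10, with starts counted from 1, Aqp3 (ENSMUSG00000028435) lies on chromosome 4 at 41092722 to 41098183 on the minus strand. Aqp8 (ENSMUSG00000030762) lies on chromosome 7 at 123462291 to 123468004 on the plus strand. Aqp9 (ENSMUSG00000032204) and Atp1b3 (ENSMUSG00000032412) lie on the minus strand of chromosome 9, at 71110659 to 71168682 and at 96332655 to 96364442. Atp1b1 (ENSMUSG00000026576) lies on the minus strand of chromosome 1 at 164437109 to 164458355. In the annotation used here, no other gene overlaps Aqp3, Aqp8 or Atp1b3, and the 2 genes that overlap Aqp9, on the opposite strand, share 0 bases of exon with it. The exons of Atp1b1 share 575 bases with those of Nme7, which runs on the opposite strand. Whether reads were assigned by strand is not stated, so reads of these bases cannot be placed for certain.

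Calls required 2 things of edgeR's quasi-likelihood test, a p under 0.05 after Benjamini-Hochberg adjustment over all genes tested and a log2 fold change of 1 or more in either direction. Adjusted p-values below are from this test. In Oct4-KO morulae edgeR called 0 of the 5 genes, where 0.804% of all genes tested were called (2 of the 5 had an unadjusted p under 0.05, as had 12.1% of all genes, and DESeq2 called 1). In Oct4-KO early ICMs 1 was called, higher (10.9% of all genes), and in Oct4-KO late ICMs 1, higher (18.1%). That gene was Aqp9 both times. In the Sox2 line edgeR called 0 in morulae (0.00712% of all genes, with 0 by unadjusted p, 4.4% of all genes, and 0 by DESeq2), 0 in early ICMs (3.27%, with 1, 19.6% of all genes, and 0) and 2 in late ICMs, both lower (6.95%). Those were Aqp3 and Atp1b1. The median log2 fold change of the 5 genes was 0.38, 0.55 and -0.29 in Oct4-KO morulae, early and late ICMs and 0.00, -0.31 and -0.11 in those of the Sox2 line. Over all genes tested the medians were 0.01, 0.01, -0.01, 0.01, -0.01 and 0.00. A share of 5 genes turns on 1 or 2 of them, and nothing was read from it about the 5 as a group.

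**Figure D1:**
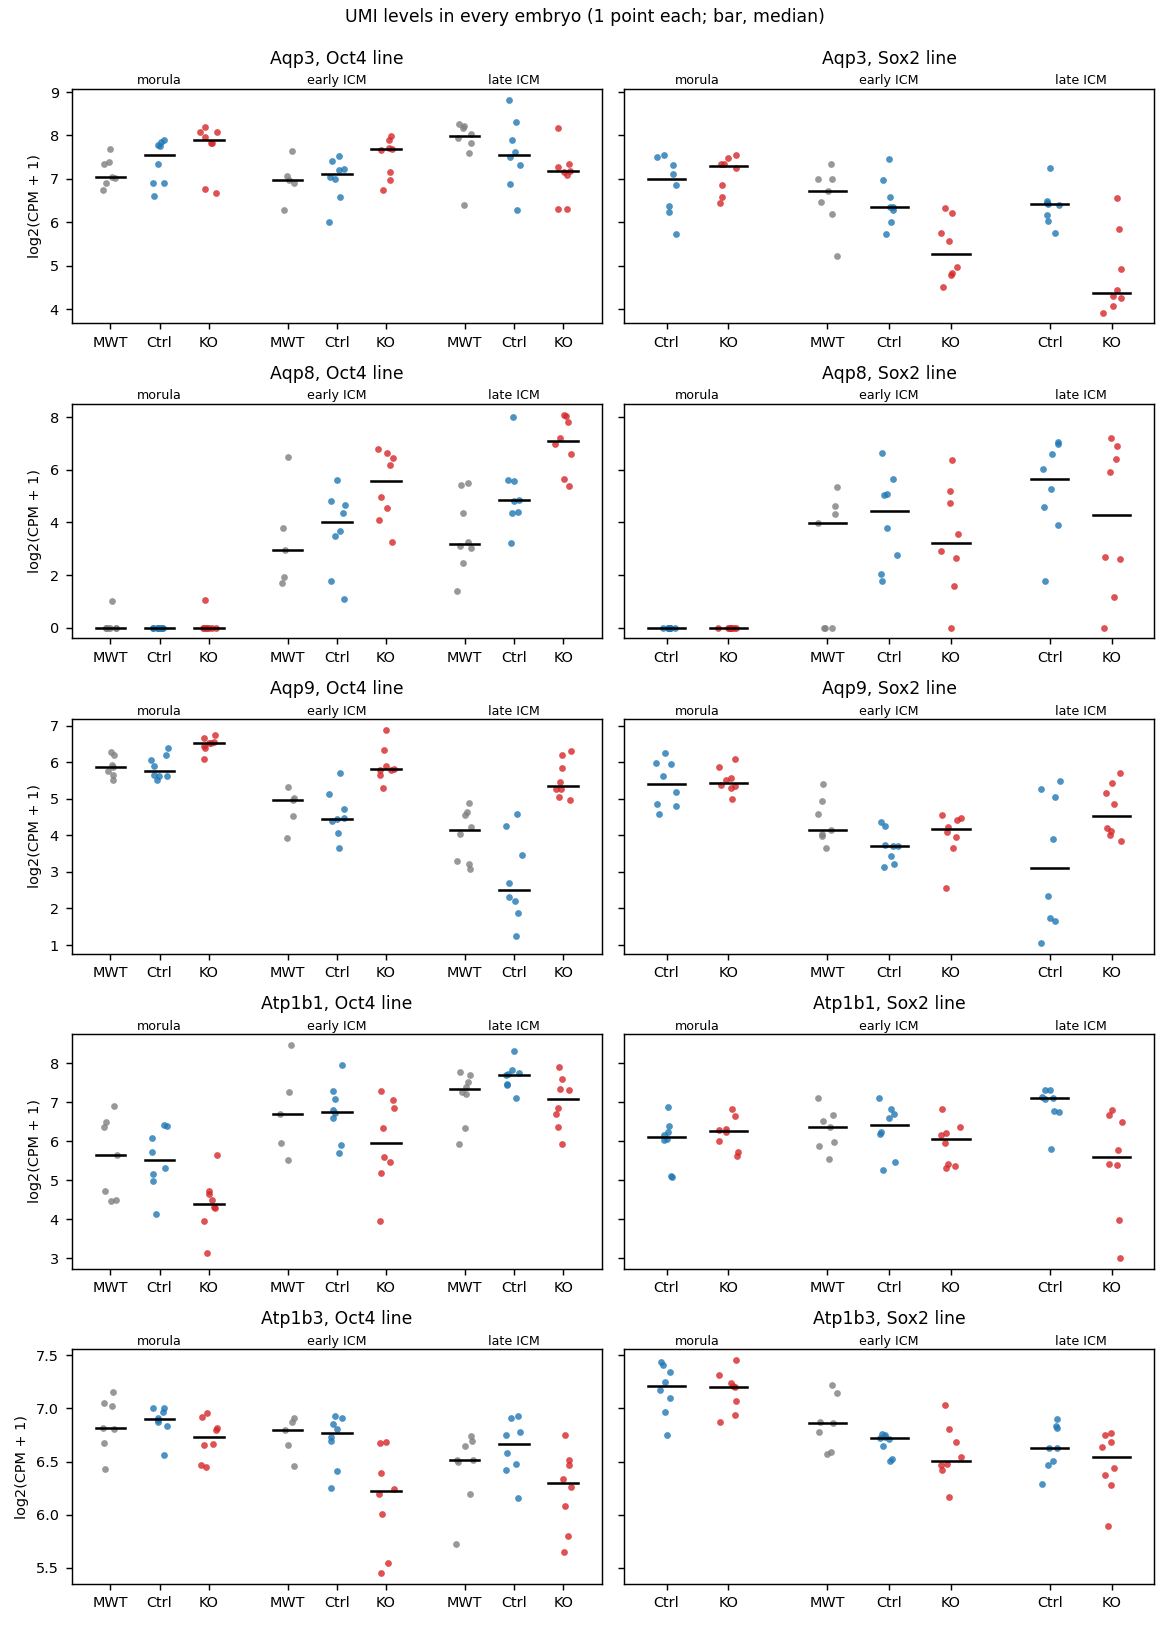
Level of each gene in each embryo, as log2(CPM + 1) on the vertical axis, by line (columns) and by stage and genotype (horizontal axis). Each point is 1 embryo and each bar a group median. Aqp9 lay at 30.4 to 78.3 CPM in Oct4-KO late ICMs, above every Ctrl embryo (1.37 to 22.8 CPM), and Aqp8 was at or near 0 in morulae.

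Aqp9 fell as Ctrl embryos of the Oct4 line passed from morula to late ICM. Its lowest, median and highest values were 44.8, 53.6 and 82.5 CPM in morulae, 11.5, 20.9 and 51.1 CPM in early ICMs and 1.37, 4.76 and 22.8 CPM in late ICMs. The fall was called at both steps (log2 fold change -1.34 ± 0.32 SE, adjusted p = 0.000283, then -1.54 ± 0.42 SE, adjusted p = 0.0026). In the Sox2 line every Ctrl early ICM lay below every morula, at 7.74, 12.2 and 19.7 CPM against 22.8, 42.1 and 75.9 CPM (log2 fold change -1.92 ± 0.35 SE, adjusted p = 1.72e-06). From early to late ICM of the Sox2 line the change was not called (0.42 ± 0.39 SE, adjusted p = 0.584). It joined late embryos that lay on both sides of the early ones, 3 above and 4 below every early ICM. The late mean was 31.9 CPM in the 4 embryos numbered 1- and 2.42 CPM in the 4 numbered 2-.

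In Oct4-KO ICMs Aqp9 was higher than in Ctrl ICMs. KO early ICMs held 37.9, 54.8 and 117 CPM, and 6 of 8 exceeded every Ctrl early ICM (log2 fold change 1.41 ± 0.32 SE, adjusted p = 0.000483). KO late ICMs held 30.4, 40.2 and 78.3 CPM, and 8 of 8 exceeded every Ctrl late ICM (2.66 ± 0.40 SE, adjusted p = 5.90e-08). Both calls held with each embryo left out in turn, at 1.19 to 1.64 and 2.47 to 2.96. KO morulae held 66.5, 91.8 and 106 CPM, with 8 of 8 above the Ctrl median and 7 above every Ctrl morula, but the change was not called (0.66 ± 0.29 SE, adjusted p = 0.294). The late ICM effect minus the early ICM effect, tested as an interaction, was not called either (1.24 ± 0.52 SE, adjusted p = 0.174).

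**Figure D2:**
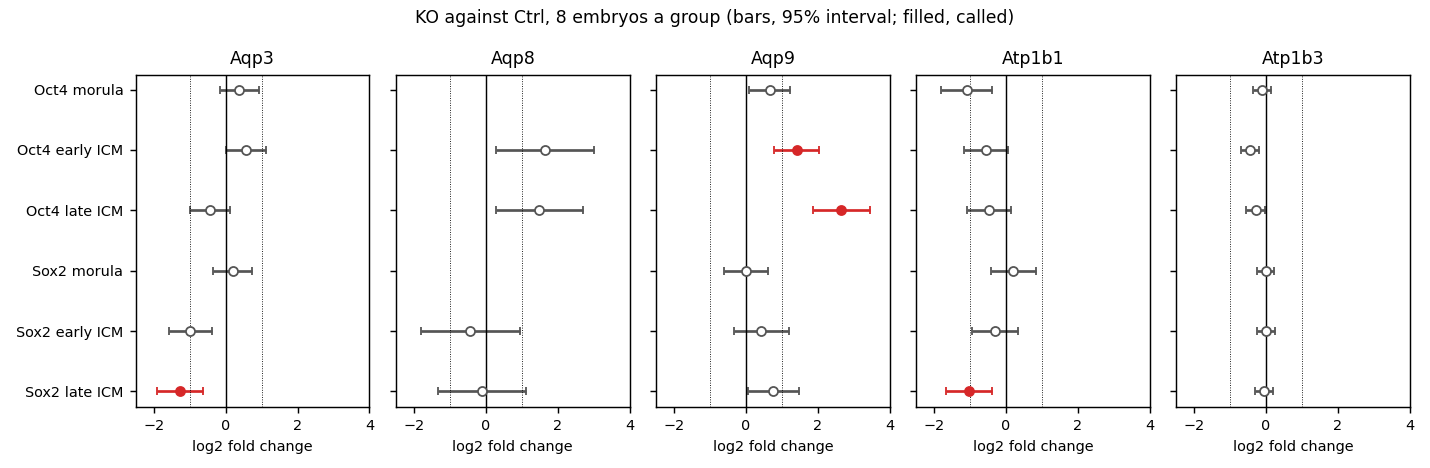
Log2 fold change of each gene between KO and Ctrl embryos in 6 comparisons of 8 against 8 embryos, from the edgeR fit. Bars are 95% intervals, filled points were called and dotted lines mark the fold minimum. The called points are Aqp9 in Oct4-KO early ICMs (1.41) and Oct4-KO late ICMs (2.66), and Aqp3 (-1.27) and Atp1b1 (-1.04) in Sox2-KO late ICMs. Aqp8 is left out in morulae, where it had 0 or 1 UMI a group.

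No KO comparison of the Sox2 line called Aqp9. KO late ICMs held 13.5, 22.8 and 51.2 CPM against 1.08, 8.96 and 44.2 CPM in Ctrl, with 8 of 8 above the Ctrl median (0.77 ± 0.36 SE, adjusted p = 0.148). It was called without Ctrl late ICM 1-1, at 1.11 (adjusted p = 0.0344), or without Ctrl late ICM 1-10, at 1.05 (adjusted p = 0.0463). KO early ICMs held 4.86, 16.9 and 22.6 CPM (0.42 ± 0.39 SE, adjusted p = 0.6) and KO morulae 31.1, 42.6 and 66.9 CPM against Ctrl values given above (0.00 ± 0.30 SE, adjusted p = 1). The KO effect in the Oct4 line minus that in the Sox2 line was called in late ICMs (1.89 ± 0.55 SE, adjusted p = 0.0175) but not when only the 4 groups compared were fitted (1.88, adjusted p = 0.105). In early ICMs this difference was not called (0.99 ± 0.51 SE, adjusted p = 0.241).

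The late ICM embryos carry numbers such as 1-4 and 2-10, and what the first digit stands for is not stated. In Sox2 Ctrl late ICMs the 4 embryos numbered 1- held 13.9 to 44.2 CPM of Aqp9 and the 4 numbered 2- held 1.08 to 4.07 CPM, with no overlap (log2 fold change of 2- against 1- embryos -3.72 ± 0.54 SE, adjusted p = 8.93e-06, where 0.477% of all genes tested were called). In Sox2-KO late ICMs the 1- embryos held 28.1 to 51.2 CPM and the 2- embryos 13.5 to 17.5 CPM. Within the 1- embryos the KO effect on Aqp9 was not called (0.35, adjusted p = 0.675, 3% of all genes called), and within the 2- embryos it was (2.81, adjusted p = 0.00061, 5.67%). The difference between these effects was 2.46 ± 0.71 (SE, 95% interval 1.05 to 3.88, adjusted p = 0.255) and was not called, where 0.0356% of all genes were. In the Oct4 line the KO effect was called within the 1- embryos (3.07, adjusted p = 2.93e-09, 16.1% of all genes) and within the 2- embryos (2.10, adjusted p = 0.00171, 9.87%).

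**Figure D3:**
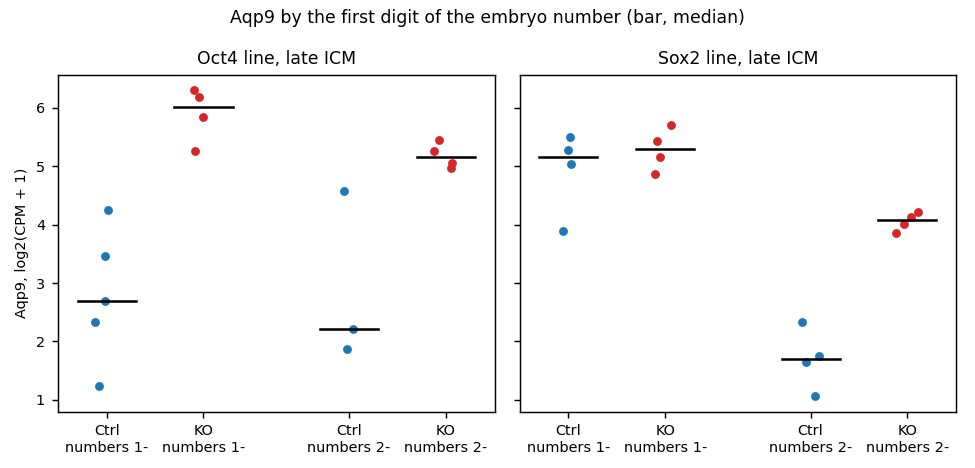
Aqp9 level in late ICMs, as log2(CPM + 1) on the vertical axis, by line, genotype and the first digit of the embryo number. Each point is 1 embryo and each bar the median of a set of 3 to 5 embryos. In the Sox2 line the Ctrl embryos numbered 2- (1.08 to 4.07 CPM) lie below all others, while in the Oct4 line KO lies above Ctrl in both sets.

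Aqp3 fell in Sox2-KO late ICMs. Ctrl embryos of the Sox2 line held 52.4, 127 and 186 CPM (lowest, median and highest) in morulae, 52, 81 and 175 CPM in early ICMs and 53.1, 84.3 and 152 CPM in late ICMs, and KO morulae held 85.6, 155 and 185 CPM. KO late ICMs held 14.1, 19.8 and 93 CPM, and 6 of 8 lay below every Ctrl embryo (log2 fold change -1.27 ± 0.32 SE, adjusted p = 0.00286). The call held with each embryo left out in turn, at -1.67 to -1.09. It was made within the 1- embryos (-1.64, adjusted p = 0.0161) and not within the 2- embryos (-0.83, adjusted p = 0.278).

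In Sox2-KO early ICMs Aqp3 was at 21.7, 38.3 and 79.5 CPM, with 8 of 8 below the Ctrl median and 5 below every Ctrl embryo. The change passed the adjusted p but not the fold minimum (-0.98 ± 0.30 SE, adjusted p = 0.0307). It passed both without Ctrl early ICM 4, 5, 9 or 15 or KO early ICM 2, 5 or 11, left out 1 at a time, at log2 fold changes as far as -1.15 (adjusted p = 0.0146). The late ICM effect minus the early ICM effect was -0.28 ± 0.44 (SE, adjusted p = 0.877).

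In the Oct4 line Aqp3 was not called in any KO comparison. In early ICMs Ctrl embryos held 63.2, 138 and 182 CPM and KO embryos 106, 205 and 252 CPM, with 5 of 8 KO embryos above every Ctrl embryo (0.55 ± 0.28 SE, adjusted p = 0.16). The KO effect in the Oct4 line minus that in the Sox2 line was called in early ICMs (1.54 ± 0.41 SE, adjusted p = 0.00938) and not in late ICMs (0.83 ± 0.43 SE, adjusted p = 0.244). In late ICMs Ctrl embryos held 76.6, 188 and 453 CPM and KO embryos 78, 144 and 288 CPM (-0.44 ± 0.28 SE, adjusted p = 0.242), and in morulae 96.1, 189 and 239 and 101, 237 and 293 CPM (0.38 ± 0.27 SE, adjusted p = 0.663).

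Aqp8 was all but undetected in morulae and was present in every group of ICMs, though not in every embryo. Of 7 Sox2 MWT early ICMs, 3 had 0 UMIs (median 14.7 CPM, highest 40.1 CPM). Every Ctrl morula of both lines and every Sox2-KO morula had 0 UMIs, and 1 of 8 Oct4-KO and 1 of 7 MWT morulae had 1 UMI. The 8 Oct4 Ctrl morulae had 0 of 7875443 UMIs, which allows up to 0.381 CPM, and the 8 Sox2 Ctrl morulae 0 of 8847456, which allows up to 0.339 CPM (3 UMIs over the group, covering counting error only). All Ctrl early ICMs had Aqp8 UMIs, 126 in all in the Oct4 line and 219 in the Sox2 line. The level was at least 48.5-fold and at least 86.9-fold higher than in morulae, and edgeR called the rise in both lines (adjusted p = 0.000702 and 2.41e-05). Sox2-KO embryos went from 0 UMIs in morulae to 153 in early ICMs, at least 59.0-fold higher, and Oct4-KO embryos from 1 to 393 UMIs.

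Aqp8 differed widely between ICMs of the same group. Oct4 Ctrl embryos held 1.15, 15.6 and 48 CPM (lowest, median and highest) in early ICMs and 8.35, 27.7 and 254 CPM in late ICMs, and Sox2 Ctrl embryos 2.46, 22.3 and 98.4 and 2.39, 50.6 and 130.1 CPM. The SD was 85.1%, 144%, 110.1% and 81.9% of the mean in these groups. For Atp1b3 it was 15.9%, 18%, 6.87% and 14.4%. The 144% of Aqp8, in Oct4 Ctrl late ICMs, includes embryo 1-9 at 254 CPM, where the next highest held 47.6 CPM.

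Oct4-KO ICMs held more Aqp8 than most Ctrl ICMs, without a call. KO early ICMs held 8.54, 51.1 and 110.0 CPM, with 7 of 8 above the Ctrl median (1.66 ± 0.69 SE, adjusted p = 0.075), and KO late ICMs 40.6, 135 and 271 CPM, with 8 of 8 above it (1.48 ± 0.61 SE, adjusted p = 0.0536). Ctrl late ICM 1-9, at 254 CPM, stood above the other 7 Ctrl embryos, which reached 47.6 CPM. Without it the late ICM change was called, at 2.54 (adjusted p = 0.00147). It was also called without KO late ICM 1-7, at 1.59 (adjusted p = 0.0429), 1-8, at 1.60 (adjusted p = 0.0424), or 2-7, at 1.57 (adjusted p = 0.0476). In early ICMs it was called without Ctrl early ICM 9, at 2.08 (adjusted p = 0.0371). The median summed level of 9 primitive endoderm markers was also higher in these KO ICMs, at 1139 against 780 CPM in early and 1351 against 655 CPM in late ICMs. Of the 7 tested singly 1 was called higher and 2 lower in early ICMs and 2 higher and 4 lower in late ICMs. Their part in the values of Aqp8 was not tested.

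Sox2-KO embryos held 0, 8.59 and 81.9 CPM in early ICMs (log2 fold change -0.43, 95% interval -1.82 to 0.96, adjusted p = 0.801) and 0, 32.3 and 146 CPM in late ICMs (-0.11, 95% interval -1.34 to 1.12, adjusted p = 0.946). The groups overlapped at both stages. The early value rested on single embryos, at -1.14 without KO early ICM 8 and 0.17 without Ctrl early ICM 11. The late value joined number sets (described above for Aqp9) of opposite direction, with means of 65.6 CPM in KO and 29.4 CPM in Ctrl among the 1- embryos (1.21, adjusted p = 0.543) and of 39.1 and 92.9 CPM among the 2- embryos (-1.08, adjusted p = 0.506). The difference between these 2 effects was not called (-2.29 ± 1.25 SE, 95% interval -4.78 to 0.20, adjusted p = 0.685). The KO effect in the Oct4 line minus that in the Sox2 line was not called in early (2.08 ± 0.98 SE, adjusted p = 0.193) or late ICMs (1.59 ± 0.87 SE, adjusted p = 0.279).

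The change of Aqp8 from early to late ICM in Oct4 Ctrl embryos was called (1.72 ± 0.69 SE, adjusted p = 0.0487) but turned on single embryos. Without Ctrl late ICM 1-9 it was 0.61 (adjusted p = 0.563). Leaving out early ICM 1, 2, 3, 4, 6, 7 or 8 or late ICM 1-3 or 2-1 also ended the call, at 1.52 (adjusted p = 0.0971) to 1.80 (adjusted p = 0.0533). Ctrl late ICM 1-9 also had the highest sum of the 9 primitive endoderm markers of its group, which ran from 283 to 1476 CPM. Over the 64 Ctrl and KO ICMs, each taken as its deviation from embryos of its group and number set, Aqp8 and the primitive endoderm sum gave Pearson r = 0.38 (two-sided permutation p = 0.00374, adjusted 0.0561) and Spearman rho = 0.28 (permutation p = 0.0302, adjusted 0.248). Without the 2 embryos farthest from the median of the marker sum r was 0.31. This was 1 of 15 relations of the 5 genes with 3 marker sums, and none passed adjustment. By line and stage, with 16 embryos each and no test, r was -0.01 in Oct4 and 0.13 in Sox2 early ICMs and 0.58 in Oct4 and 0.72 in Sox2 late ICMs, higher at the late stage in both lines. Other genes reached values of like size in a single line and stage. With the epiblast sum r was 0.64 for Aqp3 in Oct4 late ICMs, 0.56 for Atp1b1 in Sox2 early ICMs and -0.55 for Atp1b3 in Sox2 late ICMs. Atp1b1 and the primitive endoderm sum gave 0.53 in Sox2 late ICMs.

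Atp1b1, which encodes the β1 subunit, rose in Oct4 Ctrl embryos as the ICM formed. Morulae held 16.5, 45.3 and 84.5 CPM, early ICMs 51, 108 and 248 CPM and late ICMs 137, 208 and 316 CPM. The first step was called (1.15 ± 0.32 SE, adjusted p = 0.00192) and the second was under the fold minimum (0.83 ± 0.31 SE, adjusted p = 0.0276). Early ICM 9, the highest of its group, bore on both. Without it the first step was no longer called, at 0.91 (adjusted p = 0.0166), and the second was, at 1.06 (adjusted p = 0.00535). In the Sox2 line Ctrl embryos held 33, 68.6 and 118 CPM in morulae, 37.4, 85.1 and 138 CPM in early ICMs and 55, 136 and 159.7 CPM in late ICMs, and neither step was called (0.26 ± 0.32 SE, adjusted p = 0.501, then 0.53 ± 0.31 SE, adjusted p = 0.329).

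In Sox2-KO late ICMs Atp1b1 fell. KO embryos held 7.07, 47.7 and 110.3 CPM, with 8 of 8 below the Ctrl median and 5 below every Ctrl embryo (-1.04 ± 0.32 SE, adjusted p = 0.0192). The call was lost without Ctrl late ICM 1-10 or 2-6 or KO late ICM 1-1, 1-5, 2-3 or 2-10, left out 1 at a time, and was then -0.99 (adjusted p = 0.0372) to -0.85 (adjusted p = 0.0643). Within the 1- embryos it was -0.97, adjusted p = 0.263 and within the 2- embryos -1.10, adjusted p = 0.13. Sox2-KO early ICMs held 39.1, 66.1 and 114 CPM (-0.31 ± 0.32 SE, adjusted p = 0.656) and morulae 48.8, 76.6 and 113 CPM (0.20 ± 0.32 SE, adjusted p = 1).

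In the Oct4 line Atp1b1 was not called in any KO comparison. KO morulae held 7.76, 20.2 and 49.2 CPM, with 7 of 8 below the Ctrl median (-1.10 ± 0.36 SE, adjusted p = 0.107). KO morula 7 was the highest, and without it the change was called, at -1.37 (adjusted p = 0.0374). DESeq2 (-1.13, adjusted p = 0.0457) and a fit of these groups alone (-1.12, adjusted p = 0.0456) also called it. KO early ICMs held 14.6, 63.6 and 155 CPM (-0.56 ± 0.31 SE, adjusted p = 0.212) and KO late ICMs 60.5, 136 and 238 CPM (-0.47 ± 0.31 SE, adjusted p = 0.249). Nme7, which shares exon bases with Atp1b1, changed by -0.41 ± 0.27 SE, adjusted p = 0.363, in Sox2-KO late ICMs, by 0.08 ± 0.31 SE, adjusted p = 0.971, in Oct4-KO morulae, by -0.74 ± 0.26 SE, adjusted p = 0.033, in Oct4-KO early ICMs, by -1.65 ± 0.27 SE, adjusted p = 7.29e-07, in Oct4-KO late ICMs, and by 1.67 ± 0.28 SE, adjusted p = 3.94e-07, from morula to early ICM in Oct4 Ctrl embryos. Its part in the values of Atp1b1 was not tested.

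Atp1b3 varied least between groups. Its group means lay between 73.1 CPM in Oct4-KO early ICMs and 146 CPM in Sox2 Ctrl morulae, and no change reached the fold minimum. In Oct4-KO early ICMs it was at 42.7, 73.5 and 102 CPM against 75.3, 108 and 121 CPM in Ctrl, with 8 of 8 below the Ctrl median (-0.44 ± 0.13 SE, adjusted p = 0.00783). From morula to early ICM in Sox2 Ctrl embryos it went from 107, 147 and 172 to 89.9, 104 and 107 CPM (-0.59 ± 0.12 SE, adjusted p = 3.71e-05). In Sox2-KO late ICMs, where Atp1b1 was called, the change of Atp1b3 was -0.05 (95% interval -0.31 to 0.21, adjusted p = 0.862). The change of one β subunit was not tested against that of the other.

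By group mean, Aqp3 was highest in Oct4 MWT late ICMs (237 ± 72.3 CPM, SD, n = 8) and lowest in Sox2-KO late ICMs (33.4 ± 27.8 CPM, SD, n = 8). Aqp8 was highest in Oct4-KO late ICMs (152 ± 92.1 CPM, SD, n = 8), followed by Sox2 Ctrl late ICMs (61.1 ± 50 CPM, SD, n = 8). Aqp9 was highest in Oct4-KO morulae (89.9 ± 12.1 CPM, SD, n = 8), followed by Oct4-KO early ICMs (63.1 ± 24.6 CPM, SD, n = 8), and lowest in Oct4 Ctrl late ICMs (8.52 ± 7.9 CPM, SD, n = 8). Atp1b1 was highest in Oct4 Ctrl late ICMs (207 ± 52.5 CPM, SD, n = 8) and lowest in Oct4-KO morulae (22.5 ± 12.1 CPM, SD, n = 8). Neighbours in the order of the 16 means differed by less than the larger of their SDs, except Sox2 Ctrl late and Sox2-KO early ICMs for Aqp3, Oct4-KO morulae and early ICMs for Aqp9, Oct4 Ctrl and KO morulae for Atp1b1, and Sox2-KO and Oct4 Ctrl morulae for Atp1b3.

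Ctrl and MWT embryos differ in the maternal gene. In the Oct4 ICMs the labels of the MWT embryos also leave the embryonic day unsettled and, for early ICMs, the inhibitor, and these cannot be told apart from the maternal gene. Between Ctrl and MWT embryos edgeR called 0 of the 5 genes in Oct4 morulae (0.0646% of all genes tested), 0 in early ICMs (0.373%), 0 in late ICMs (0.797%) and 0 in Sox2 early ICMs (2.58%). DESeq2 called 0, 0, 0 and 0, and 0, 0, 2 and 1 had an unadjusted p under 0.05, against 7.22%, 9.52%, 13.9% and 20.5% of all genes. In Oct4 MWT late ICMs Aqp8 was at 1.66, 8.08 and 43.6 CPM (1.80 ± 0.72 SE, adjusted p = 0.201, and 0.72 without Ctrl late ICM 1-9, adjusted p = 0.743) and Aqp9 at 7.51, 16.7 and 28.6 CPM (-0.96 ± 0.44 SE, adjusted p = 0.288). There 4 of 7 primitive endoderm markers tested were called higher in Ctrl than in MWT embryos, and the part of these cells in the values of Aqp8 was not tested. In Sox2 MWT early ICMs Aqp9 was at 11.6, 16.7 and 41.6 CPM (-0.81 ± 0.38 SE, adjusted p = 0.198). In Oct4 MWT early ICMs the values of Aqp8 were 2.23, 2.85, 6.69, 12.9 and 89.1 CPM and those of Atp1b1 44.7, 61.3, 103, 153 and 354 CPM, with embryo 3 the highest for both.

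By stage in Ctrl embryos, 3 of the 5 genes were called from morula to early ICM in the Oct4 line (2 higher and 1 lower, 29% of all genes tested) and 2 in the Sox2 line (1 higher and 1 lower, 31.9%). From early to late ICM 2 were called in the Oct4 line (1 higher and 1 lower, 15.6%), and edgeR called 0 in the Sox2 line (2.9%, with 0 by unadjusted p, 21% of all genes, and 0 by DESeq2). Aqp3 passed the adjusted p but not the fold minimum from early to late ICM in the Oct4 line (0.75 ± 0.28 SE, adjusted p = 0.0323). For the KO effect in the Oct4 line minus that in the Sox2 line, 1 gene was called in early ICMs (5.52% of all genes) and 1 in late ICMs (6.3%). For the late minus the early ICM effect, edgeR called 0 in the Oct4 line (3.11%, with 2 by unadjusted p, 17.8% of all genes, and 0 by DESeq2) and 0 in the Sox2 line (0.0427%, with 0, 10.6% of all genes, and 0).

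The other genes of the pathway came from a list of 32 aquaporins, Na,K-ATPase subunits, FXYD regulators of the pump and other ion transport genes, of which 29 were in the table and 11 were detected often enough to be tested. The other aquaporins were low. Aqp11 reached a group mean of 3.76 CPM and Aqp7 of 1.94 CPM, and Aqp1, Aqp2 and Aqp6 had a mean of 0 in every group. By sublist, Oct4-KO late ICMs, where 18.1% of all genes tested were called, had 2 higher and 1 lower of 5 pump genes, 0 and 0 of 4 other ion transport genes and 0 and 0 of 2 aquaporins. Oct4-KO early ICMs (10.9% of all genes) and Sox2-KO late ICMs (6.95%) each had 1 pump gene lower, and no other KO comparison called any of the 11.

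Atp1b2, the β2 subunit, fell in Oct4-KO ICMs. In early ICMs it had 16 UMIs in 8 Ctrl embryos and 0 in 8 KO embryos, at least 5.45-fold lower (3 UMIs over the group taken as the floor, adjusted p = 0.00341). In late ICMs Ctrl embryos held 3.34, 11 and 30.9 CPM (65 UMIs) and KO embryos 0, 0 and 2.38 CPM (4 UMIs), with a log2 fold change of -3.86 ± 0.71 SE, adjusted p = 7.70e-06. In Sox2-KO late ICMs it was at 0, 4.55 and 18.6 CPM against 3.53, 12.1 and 20.4 CPM (-0.79 ± 0.49 SE, adjusted p = 0.32), and the KO effect in the Oct4 line minus that in the Sox2 line was called (-3.07 ± 0.90 SE, adjusted p = 0.0182). Sox2 early ICMs held 41 UMIs in 8 Ctrl embryos and 12 in 8 KO embryos, 5.51 against 1.62 CPM over the pooled embryos (-1.65 ± 0.62 SE, adjusted p = 0.0927). That was not called, and in early ICMs the difference between the lines was not called either (adjusted p = 0.181).

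Fxyd5 and Fxyd6, small regulators of the pump, were called higher in Oct4-KO late ICMs, from low levels. Fxyd5 was at 5.07 ± 3.97 CPM against 1.66 ± 1.38 CPM (SD, n = 8 each, 1.63 ± 0.57 SE, adjusted p = 0.0209) and Fxyd6 at 9.5 ± 11.3 against 2.95 ± 2.89 CPM (SD, n = 8 each, 1.65 ± 0.63 SE, adjusted p = 0.0357). In Sox2-KO late ICMs Fxyd5 was called lower, with 7 of 8 KO embryos at 0 (adjusted p = 0.0336), and the effects differed between the lines (adjusted p = 0.0038). Fxyd4 was at 22.4 ± 12.8 CPM in Oct4-KO late ICMs against 40.4 ± 19.1 CPM in Ctrl (SD, n = 8 each, -0.76 ± 0.30 SE, adjusted p = 0.043).

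Slc4a2 (an anion exchanger), Slc9a3r1 (a scaffold protein for membrane transporters) and Slc12a2 (a sodium, potassium and chloride cotransporter) were not called in any KO comparison. In the Oct4 line Slc4a2 passed the adjusted p alone in KO early ICMs (0.92 ± 0.25 SE, adjusted p = 0.00453) and KO late ICMs (0.89 ± 0.24 SE, adjusted p = 0.00257). Slc12a2 fell from morula to early ICM in Ctrl embryos of the Oct4 line (-1.23 ± 0.24 SE, adjusted p = 1.28e-05) and of the Sox2 line (-2.18 ± 0.25 SE, adjusted p = 2.97e-12).

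**Figure D4:**
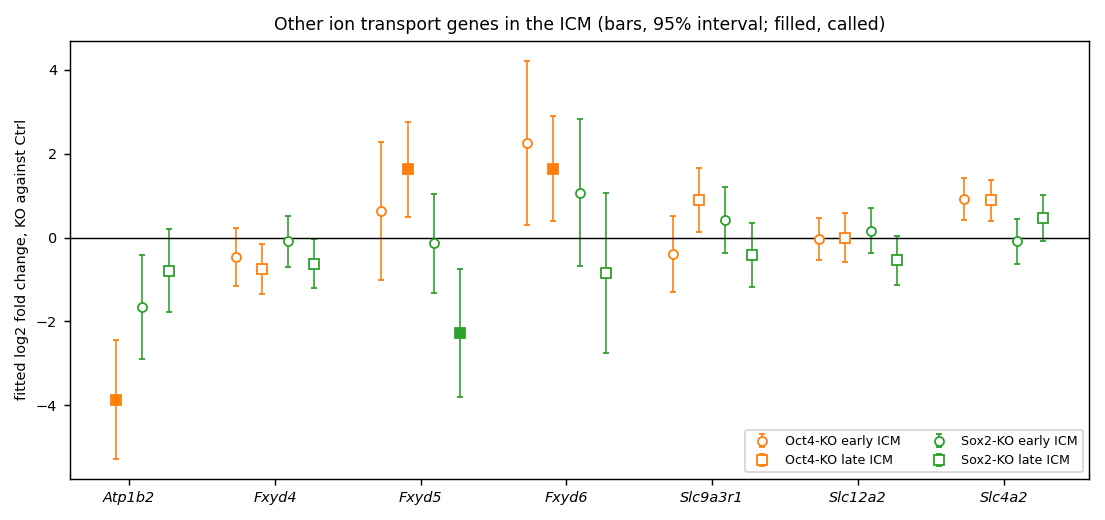
Fitted log2 fold change between KO and Ctrl ICMs for the 7 other pump and ion transport genes named here, in 4 comparisons of 8 against 8 embryos. Bars are 95% intervals and filled points were called. Atp1b2 (-3.86) lay lower and Fxyd5 (1.63) and Fxyd6 (1.65) were higher in Oct4-KO late ICMs, and Fxyd5 was lower in Sox2-KO late ICMs. Atp1b2 in Oct4-KO early ICMs, also called, is left out because its KO group had 0 UMIs.

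Over the 16 group means, the genes most like each of the 5 were sought among 7918 genes that averaged 20 CPM or more in some group, by Pearson's r of log2(CPM + 1). They were Plbd1, Gm15920 and Bcas3 for Aqp3 (r = 0.89, 0.88 and 0.88) and Ppib, Tfpi and BC053393 for Aqp8 (r = 0.98, 0.98 and 0.98). For Aqp9 they were Sgce, Med10 and Hpdl (r = 0.95, 0.94 and 0.94), for Atp1b1 Tyro3, Dlg1 and Aspa (r = 0.91, 0.90 and 0.89) and for Atp1b3 they included Odc1 and Kpna4 (r = 0.94 and 0.93). Among the 5 genes themselves r ran from -0.79 between Aqp8 and Atp1b3 to 0.64 between Aqp8 and Atp1b1. The groups share lines and stages, so these values describe the 16 means and carry no test.

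Trophectoderm markers differed in the ICMs in which Aqp9, Aqp3 and Atp1b1 were called. They also differed in Sox2-KO early ICMs, where edgeR called 0 of the 5 genes. There 6 of 14 were called higher and 0 lower, with 3.27% of all genes called. Of 14 tested, 3 were called higher and 1 lower in Oct4-KO early ICMs (10.9% of all genes called), 11 higher in those at the late stage (18.1%) and, in late ICMs without Sox2, 5 higher and 1 lower (6.95%), and none of the 5 defining ones was at 0 in any group. Epiblast markers moved in the same ICMs. Of 10 tested, 7 were called lower in Oct4-KO early ICMs and 10 at the late stage, with 0 higher. In the Sox2 knockout 5 were called lower in early and 5 in late ICMs, with 0 higher. The 10 include Pou5f1 and Sox2, so the gene knocked out in each line was lower by design, in these counts and in the sums. Their summed level ran from 1550 to 2269 CPM in Oct4-KO early ICMs against 2448 to 4052 CPM in Ctrl, from 490 to 1398 against 2705 to 4475 CPM in Oct4-KO late ICMs, and from 1615 to 2481 against 2922 to 4779 CPM in Sox2-KO late ICMs. Of 7 primitive endoderm markers tested, 1 was called higher and 2 lower in Oct4-KO early ICMs, 2 higher and 4 lower at the late stage, and in late ICMs without Sox2 only 1 was called, lower. The summed level of all 9 lay higher in most Oct4-KO ICMs, at 795 to 1302 CPM (median 1139) against 583 to 922 CPM (median 780) in early ICMs and at 886 to 1605 CPM (median 1351) against 283 to 1476 CPM (median 655) in late ICMs. In late ICMs of the Sox2 line it ran from 550 to 1240 CPM in KO (median 725) against 384 to 1858 CPM in Ctrl (median 620). Within groups and number sets, over 64 ICMs, the trophectoderm sum gave r = -0.06 with Aqp9 (permutation p = 0.659, adjusted 0.925), -0.03 with Aqp3 (permutation p = 0.74, adjusted 0.925) and 0.24 with Atp1b1 (permutation p = 0.0182, adjusted 0.136). Spearman's rho was -0.06, 0.00 and 0.27 (permutation p = 0.661, 0.978 and 0.0331), and r without the 2 farthest embryos was -0.06, 0.01 and 0.22. The pooled values joined stages of opposite sign for Aqp3 in both lines and for Aqp9 in the Oct4 line. By line and stage, with 16 embryos each and no test, r with Aqp3 was 0.25 in Oct4 and 0.26 in Sox2 early ICMs and -0.28 and -0.20 in late ICMs. With Aqp9 it was 0.35 in Oct4 and -0.08 in Sox2 early ICMs and -0.33 and -0.18 in late ICMs. The part of trophectoderm, epiblast or primitive endoderm cells in the differences between groups was not tested.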

How the data were processed

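Single mouse embryos or isolated ICMs (123, 1 library each) were profiled by 3′-enriched RNA sequencing with UMIs. The authors aligned reads to mm10 and counted UMIs per gene (the submitters' processing notes name UMI-tools, cutadapt, TopHat2, featureCounts, Bowtie2 and DESeq2; versions and the strand setting are not given in the sources used here), and the deposited table holds raw UMI counts. A second deposited table of rlog values was not used. Samples were grouped by their titles.

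The 5 genes and the lists of pathway and marker genes were chosen with earlier results of these data known. Counts were tested in R 4.3.3 with edgeR 4.0.16 (TMM scaling, quasi-likelihood F test, 1 coefficient per group). A gene was kept if, in some stage, a share of 0.5 or more of the embryos had 1 UMI or more. Ctrl and KO embryos (96 embryos, 12 groups, 14053 genes) were fitted together, and all 123 embryos (16 groups, 13923 genes) for Ctrl against MWT. P-values were adjusted over all genes tested. The SE is the log2 fold change divided by the square root of F. Nothing states that the embryos of a group came from separate litters, so p-values measure the spread between these embryos. Pairs of embryos within groups (416) differed by more than sampling noise, with a lowest chi-square per gene of 2.41. In fits with an embryo left out, the dispersion trend of the full fit was kept. Named are the 5 genes, Pou5f1 and Sox2, pathway genes that averaged 20 CPM or more in some group or called in a KO comparison, and the 3 genes most like each of the 5; some genes that this rule names are not reported here. Aqp1, Aqp2, Aqp6, Aqp7 and Aqp11, outside this rule, were named after their values were seen. Relations with marker sums were chosen after seeing the data and tested with 100000 permutations within groups (Python 3.11.15, scipy 1.17.1). DESeq2 1.42.0 and other scalings, filters and fits were alternatives. The tests were tested on simulated data. Floors of 3 UMIs cover counting error only.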

Additional observations from a re-analysis of the deposited data

Results flagged for a closer look

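Single embryos stood apart from their group in 7 of 75 groups of values (Dixon's test at its 95% critical value). Chance flags about 1 in 20 only where values are normal. The test was run on CPM, which were not checked for this, so 7 of 75 cannot be set against that share. The highest value stood apart for Aqp8 in Oct4 Ctrl late ICM 1-9 (254 CPM, next 47.6 CPM), which also had the highest primitive endoderm marker sum of its 8 embryos (1476 CPM). It also did for Aqp8 in Oct4 MWT early ICM 3 (89.1 CPM, next 12.9 CPM) and in Sox2-KO early ICM 8 (81.9 CPM, next 35.9 CPM). For Aqp3 it did in Oct4-KO late ICM 1-8 (288 CPM, next 161 CPM) and Sox2 Ctrl late ICM 1-4 (152 CPM, next 89.6 CPM). For Atp1b1 it did in Oct4-KO morula 7 (49.2 CPM, next 25.4 CPM), the deepest library of its group (1159617 UMIs), with the highest trophectoderm (1582 CPM) and primitive endoderm (1081 CPM) marker sums. The lowest value stood apart for Atp1b3 in Oct4 Ctrl morula 1 (93.3 CPM, next 113 CPM). The part of depth or of other cells in these values was not tested.

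The effect of losing Oct4 differed from that of losing Sox2 for Aqp3 in early ICMs, by 1.54 on the log2 scale, and for Aqp9 in late ICMs, by 1.89, both called in a test of the difference itself with edgeR. For Aqp9 the call was lost when only the groups compared were fitted (1.88, adjusted p = 0.105), and the KO effects did not keep 1 order in both number sets. Among late ICMs numbered 1- the KO effect was 3.07 in the Oct4 line and 0.35 in the Sox2 line, and among those numbered 2- it was 2.10 and 2.81, larger in the Sox2 line. The difference between the lines within a set was not tested.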

How the results depend on the processing

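Of 622 values of 85 results of the 5 genes under alternative settings, 598 kept their side of the call, 8 lost a call, 16 gained one and 0 called values changed sign. Of the 598, 30 were values not called in either fit that changed sign, among them Aqp8 in Sox2-KO late ICMs (-0.11, within the 1- embryos 1.21) and Atp1b3 in Oct4-KO late ICMs (-0.29, within the 2- embryos 0.16). Over the KO comparisons 4 calls became 7 when only the groups compared were fitted, and over the differences in KO effect 2 calls became 1 (Aqp9 in late ICMs, adjusted p = 0.105). With 1 embryo left out, calls ran from 3 to 5 over the KO comparisons, from 6 to 7 (of 7) over the stage comparisons and stayed at 0 for Ctrl against MWT. Aqp8 in Oct4-KO early and late ICMs was called without the detection filter (adjusted p = 0.0451 and 0.0285) and with only the groups compared (adjusted p = 0.0152 and 0.0313). Aqp3 in Sox2-KO early ICMs was called with library totals alone (-1.06, adjusted p = 0.016). Aqp8 from early to late ICM in Oct4 Ctrl embryos lost its call with library totals alone (adjusted p = 0.0607) and with DESeq2 (adjusted p = 0.0836). The causes were not tested.

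Counts over all genes moved by over 1.5 times for the Sox2 late minus early ICM effect (6, with DESeq2 41, with only the groups compared 3), for Ctrl against MWT in Oct4 morulae (9, without the filter 15, with DESeq2 15) and in Oct4 late ICMs (111, with only the groups compared 37). Without the fold minimum 113 genes became 206, 1529 became 2950 and 2544 became 4450 in Oct4-KO morulae, early and late ICMs, and 459 became 989 and 977 became 1935 in Sox2-KO early and late ICMs. By stage in Ctrl embryos, 4080 became 6748 and 2187 became 4560 in the Oct4 line and 4489 became 7270 and 407 became 1013 in the Sox2 line. For Ctrl against MWT 52 became 89 and 111 became 220 in Oct4 early and late ICMs and 359 became 881 in Sox2 early ICMs. With the fold minimum and 1 embryo left out, Ctrl against MWT called 3 to 22 genes in Oct4 morulae and 23 to 71 in Oct4 early ICMs. A fit within 1 number set, with fewer embryos, called 1387 genes in late ICMs of the Oct4 line numbered 2- (2544 in all late ICMs) and 422 in those of the Sox2 line numbered 1- (977 in all). How many genes these counts share was not tested.

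Embryo numbers are shared between groups, and whether they pair embryos is not stated. Over 29 pairs in 9 comparisons the correlation of deviations ran from -0.20 to 0.23, and in 0 comparisons was every pair over 0.1. With 2 to 5 shared numbers in each comparison, these values cannot settle it. With the replicate block on the embryos with shared numbers the KO comparisons had 6 calls, against 4 for the same embryos without it, where comparisons that allow no block keep their own calls. In 2 KO and 2 Ctrl embryos, Aqp8 in Oct4-KO early ICMs was 3.30 with the block and 3.39 without, against 1.66 with all embryos. In 4 KO and 4 Ctrl embryos, Aqp9 in Sox2-KO late ICMs was 1.13 (adjusted p = 0.0489) with the block and 0.82 (adjusted p = 0.591) without. Over all genes, with the block and for the same embryos without it, calls were 282 and 157 in KO morulae and 834 and 851 in KO early ICMs of the Oct4 line, and 418 and 227 in early and 638 and 320 in late KO ICMs of the Sox2 line. From morula to early ICM they were 2798 and 2785 in Oct4 and 2307 and 1907 in Sox2 Ctrl embryos, and for Ctrl against MWT 39 and 21 in Oct4 morulae, 8 and 14 in Oct4 early ICMs and 302 and 60 in Sox2 early ICMs. Oct4-KO late ICMs and Sox2-KO morulae share too few numbers with their Ctrl embryos for a block. For Aqp8 the depth of the 8 Oct4 Ctrl morulae, with 0 UMIs, allows a level of up to 0.381 CPM.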
